A study of Mus musculus with 24 samples.

Results

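Immune checkpoint ligands are surface or secreted proteins that hold back T cells, natural killer cells or macrophages by binding inhibitory receptors on them. The genes described here are 8 named ones, Cd274, Pdcd1lg2, Cd276, Cd80, Nectin2, Pvr, Cd47 and Lgals9, taken by symbol from a count table of 43629 genes. They were followed in the mouse lines E0771 (labelled as breast adenocarcinoma) and MC38 (labelled as colon adenocarcinoma), 2 established tumour lines. Each line received for 3 h either DMSO (the solvent), 2.5 µM RG6146, 10 ng/mL TNF, or TNF and RG6146 together, called the combination here. RG6146 is an inhibitor of BET bromodomains, the protein domains that read acetylated histones, and TNF is an inflammatory cytokine that signals through NF-kB, a family of transcription factors. There were 3 replicates of each line and treatment and 24 libraries in all, and the 12 libraries of a line share no agent beyond the solvent, as far as the labels say. A growth protocol given for all samples names MC38-Ova cells. Samples were assigned to E0771 or MC38 by their own labels.

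Cd274 encodes PD-L1, which binds PD-1 on T cells, and its transcription is known to follow interferon signalling through JAK, STAT and IRF1 and, in many tumours, NF-kB. Pdcd1lg2 encodes PD-L2, the other ligand of PD-1. Cd80 is a ligand of CD28 and CTLA-4 on antigen-presenting cells, and Cd276 (B7-H3) is a relative of the same B7 family found on many tumours. Nectin2 and Pvr are adhesion molecules bound by the inhibitory receptor TIGIT and the activating receptor CD226. Cd47 signals to SIRPα on macrophages against engulfment, and Lgals9 encodes galectin-9, a sugar-binding protein bound by TIM-3.

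On mm10, Cd274 lies at chr19:29367455-29388095 on the plus strand, and Pdcd1lg2 follows it at chr19:29410919-29471161 on the same strand, 22.8 kb further on with 0 protein-coding genes between them. Nectin2 (chr7:19716644-19750483) and Pvr (chr7:19903578-19921160) both lie on the minus strand of chromosome 7, 153.1 kb apart with 6 protein-coding genes between them. Cd276 is at chr9:58524298-58555437 (minus strand), Lgals9 at chr11:78962974-78984946 (minus strand), Cd80 at chr16:38455561-38496335 (plus strand) and Cd47 at chr16:49800533-49915010 (plus strand). All 8 are annotated as protein-coding, and the counts are of reads over their annotated exons near the 3′ end of the transcript. Exons of Cd274, Cd276 and Nectin2 are overlapped on the opposite strand by AC119228.1, Gm10657 and Gm20512. The strand setting of the counting is not given in the sources used here, so reads of such partners cannot be told apart from those of the ligands. Gm10657 held 3 counts in the 12 E0771 libraries and 4 in the 12 MC38 libraries, and Gm20512 held 8 and 10.

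Promoter sequence from RefSeq (GRCm38.p6) was matched for 7 of the 8 genes. The bases outside annotated exons are printed for 3 of them: Cd274 and Nectin2, whose transcripts changed in tests described further on, and Pdcd1lg2, the neighbour of Cd274 and other PD-1 ligand. They are written 5′ to 3′ on the gene's own strand, with capitals for matches on either strand to a loose form of the NF-kB site, GGG and CC with any 5 bases between them.
Cd274, chr19:29367391-29367437: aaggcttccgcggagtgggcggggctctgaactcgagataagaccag
Pdcd1lg2, chr19:29410669-29410918: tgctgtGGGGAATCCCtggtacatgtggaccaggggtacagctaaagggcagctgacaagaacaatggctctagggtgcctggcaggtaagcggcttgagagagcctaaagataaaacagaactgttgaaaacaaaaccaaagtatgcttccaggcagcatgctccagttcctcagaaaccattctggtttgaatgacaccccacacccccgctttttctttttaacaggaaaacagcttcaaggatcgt
Nectin2, chr7:19749574-19749823: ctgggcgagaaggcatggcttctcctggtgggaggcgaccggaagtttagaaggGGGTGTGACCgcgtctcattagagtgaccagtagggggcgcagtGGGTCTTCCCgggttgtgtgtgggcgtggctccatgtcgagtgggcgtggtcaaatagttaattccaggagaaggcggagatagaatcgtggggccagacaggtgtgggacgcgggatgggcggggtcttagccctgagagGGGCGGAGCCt

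In windows from 250 bases before to 50 after the start, the loose NF-kB site occurred in Nectin2, Pdcd1lg2, Cd276, Lgals9 and Cd80, 5 of the 7 genes, and in 50.8% of all 32851 promoters in the table. It did not occur in the windows of Cd274 and Cd47. The E-box CACGTG occurred in 0 of the 7 and in 7.2% of all promoters. The interferon response element, GAAA and GAAA with any 2 bases between them, occurred in Lgals9 alone of the 7 and in 3.4% of all promoters. The AP-1 site TGANTCA occurred in Cd80 alone of the 7 and in 7.8%. Matches to different motifs did not overlap each other in these 7 windows, while some NF-kB matches in Cd276 overlapped one another. These matches describe letters in a short window and say nothing of binding.

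The libraries held 5392406 to 9132814 counts in E0771 and 5392808 to 9673118 in MC38. Expression is given as CPM, counts per 1000000 after scaling libraries with TMM factors. Only the CPM of cell type markers are per 1000000 of the raw library total, without TMM factors. Tests are edgeR's quasi-likelihood F test, two-sided, with p-values adjusted by the Benjamini-Hochberg method over all tested genes. Called genes are those whose adjusted p was under 0.05. Whether replicates came from separate cultures is not stated in the labels, and the p-values therefore reflect the spread among these samples alone, which may be technical. In such bulk samples, fewer cells with a transcript and less transcript per cell cannot be told apart. Of 7 epithelial markers Krt8 made up nearly all of the summed 83.63 to 112.9 CPM in E0771, with Epcam at 0 in 10 of 12 libraries and Krt19 at 0 in all 12, and in 11 MC38 libraries the sum was 0 to 0.765 CPM. In the remaining MC38 library, combination replicate 2, it was 7.949 CPM, of which Krt8 made up 7.036. Epcam and Krt19 were thus at or near 0 in both lines. In each group only the library farthest from the other 2 could be set apart, where its root mean square log2 distance was over 0.45. This limit was set after seeing the data. E0771 TNF replicate 3 (0.546) and MC38 DMSO replicate 3 (0.532) were also over it but were not the farthest of their group and were kept. E0771 TNF replicate 2 (0.627), MC38 DMSO replicate 2 (0.565), MC38 TNF replicate 1 (0.594) and MC38 combination replicate 2 (0.468) stood apart. Mitochondrial ribosomal RNA made up 0.376% and 0.609% of the counts in the first and second of these, against 1.685% to 3.227% in the other 22 libraries. In MC38 combination replicate 2, the summed level of 25 leukocyte markers was 1960 CPM, where the 11 remaining MC38 libraries had 6.49 to 34.36 CPM and E0771 had 117.5 to 207.7 CPM, with S100a8 making up most of it in E0771. Fibroblast markers, 7 in all, summed to 74.55 to 134.6 CPM in E0771 and 305.6 to 714.5 CPM in MC38.

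Cd274, Cd276, Nectin2, Pvr, Cd47 and Lgals9 passed the filter on low counts in both lines, 6 of the 8 genes. Pdcd1lg2 had 1 count in the 12 E0771 libraries and 4 in the 12 MC38 libraries, of which 2 were in MC38 combination replicate 2. Cd80 had 4 counts in E0771, 3 of them with the combination, and 1 count in MC38. A count of 3, the floor used for detection, stood for 0.332 to 0.576 CPM in E0771 and 0.296 to 0.575 CPM in MC38. Each single library of both genes lay below its floor, so PD-L2 and CD80 transcripts were not detectable at this depth in either line under any treatment. These limits cover counting error only.

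**Figure D1:**
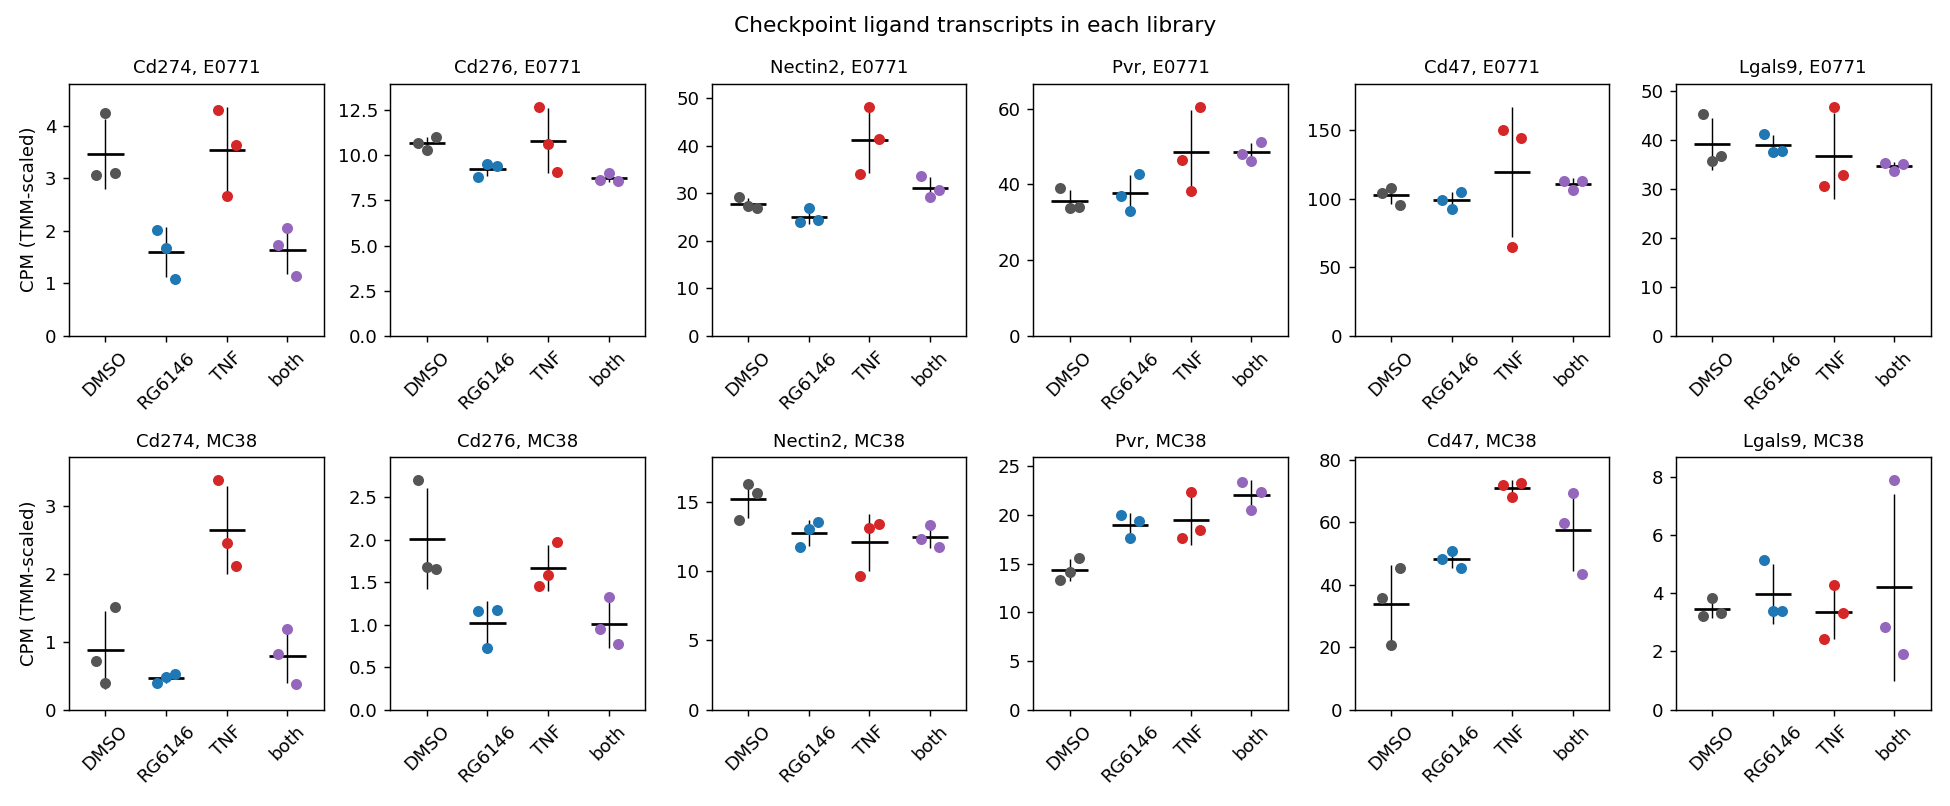
CPM of the 6 ligand genes that passed the filter (columns) in E0771 (upper row) and MC38 (lower row), with a point for each of 3 libraries per treatment, ordered by replicate number, a bar at their mean and a line of 1 SD to each side. Cd274 in E0771 sits between 1.08 and 2.06 CPM in the 6 libraries with RG6146 and between 2.66 and 4.31 CPM in the 6 without, and the axes differ between panels and start at 0.

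In DMSO, each of the 6 ligand genes was higher in E0771 than in MC38. Lgals9 differed most, at 39.3 ± 5.34 CPM in E0771 and 3.47 ± 0.33 CPM in MC38 (mean ± SD, n = 3), a log2 difference of 3.47 ± 0.31 (± SE, as for every log2 value here) with an edgeR adjusted p of 1.54e-09. Cd276 differed by 2.42 ± 0.22, Cd274 by 2.03 ± 0.40, Cd47 by 1.59 ± 0.24, Pvr by 1.30 ± 0.16 and Nectin2 by 0.86 ± 0.15 on the log2 scale, with edgeR adjusted p-values from 2.41e-09 to 0.000125. In none of the 6 did the 3 DMSO libraries of one line overlap those of the other, but the share of all genes without such overlap was not counted. These 6 calls of 6 stand beside 58.7% of the 14058 genes tested between the lines that were called. Of all genes 28.9% were called higher in E0771. All 6 were called under each of the 12 alternative settings run for this comparison.

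PD-L1 transcripts fell with RG6146 in E0771. Cd274 stood at 3.06, 4.24 and 3.10 CPM with DMSO and at 2.02, 1.68 and 1.08 CPM with RG6146 (replicates 1, 2 and 3). All 3 RG6146 libraries were below all 3 DMSO libraries, and the drop was 2.17-fold (-1.12 ± 0.34 on the log2 scale, edgeR adjusted p = 0.0464). Cd274 was the 1 gene of 6 called in this comparison, in which 10.8% of 12541 genes were called. The values rested on 18 to 31 counts a library without RG6146 and 6 to 11 with it. Leaving out any 1 of the 6 libraries compared ended the call (-1.33 to -0.91, adjusted p from 0.07 to 0.194), as did DESeq2 (-1.12, adjusted p = 0.115). The call also ended without a filter, with the replicate block and in the fit of all 24 libraries.

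TNF did not move Cd274 detectably in E0771. With TNF alone it stood at 4.31, 2.66 and 3.64 CPM, which overlapped DMSO (log2 difference 0.00 ± 0.29, edgeR adjusted p = 0.997). With the combination it stood at 1.73, 2.06 and 1.14 CPM, below every TNF and every DMSO library. Cd274 was therefore lower with the combination than with TNF (-1.08 ± 0.34, adjusted p = 0.0399) and than with DMSO (-1.08 ± 0.34, adjusted p = 0.0427), by edgeR. The step from RG6146 to the combination was 0.05 ± 0.39 (adjusted p = 1) and the interaction, the effect of TNF with RG6146 present less that without it, was 0.04 ± 0.48 (adjusted p = 1). The order of the E0771 means was TNF at 3.54, DMSO at 3.47, the combination at 1.64 and RG6146 at 1.60 CPM, in which the first pair and the last pair overlapped. Against TNF the call ended without TNF replicate 1 or 3 or any combination replicate (adjusted p from 0.0614 to 0.154), and against DMSO without any 1 of the 6 libraries (adjusted p from 0.0645 to 0.162). DESeq2 called neither (adjusted p of 0.0932 and 0.105). The call against DMSO also ended without a filter (-1.08, adjusted p = 0.062), with the replicate block (-1.08, adjusted p = 0.057) and in the fit of 24 libraries (-1.08, adjusted p = 0.0677). The call against TNF also ended with the replicate block, in the fit of 24 libraries and with only the 6 libraries compared.

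In MC38 Cd274 was highest with TNF. It stood at 0.721, 0.395 and 1.51 CPM with DMSO, 0.387, 0.483 and 0.521 CPM with RG6146, 3.38, 2.45 and 2.12 CPM with TNF, and 0.813, 1.18 and 0.383 CPM with the combination. The 3 TNF libraries lay above the other 9, while the other 3 groups overlapped. The TNF value was 1.64 ± 0.46 on the log2 scale against DMSO, which edgeR did not call (adjusted p = 0.129). Without the libraries that stood apart it was 0.997 (adjusted p = 0.733), and in the fit of all 24 libraries it was 1.64 and called (adjusted p = 0.0307). Without MC38 DMSO replicate 3 it was 2.28 (adjusted p = 0.0606) and without DMSO replicate 2 it was 1.20 (adjusted p = 0.381).

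In MC38 Cd274 was 3.14-fold lower with the combination than with TNF (-1.65 ± 0.46, edgeR adjusted p = 0.0346), with no overlap of the groups. The counts were 21, 20 and 14 with TNF and 6, 9 and 2 with the combination, where replicate 3, at 0.383 CPM, lay below its floor of 0.575 CPM, so the fold is imprecise. It was the 1 ligand gene of 6 called there, beside 11.3% of 13272 genes. Against DMSO the combination was level, at -0.01 ± 0.62 (adjusted p = 0.997), and RG6146 alone stood at -0.82 ± 0.58 (adjusted p = 0.445) on 3 to 10 counts a library, where a difference of this size was not detectable. Leaving out any 1 of the 6 libraries compared ended the call against TNF (-2.04 to -1.38, adjusted p from 0.0506 to 0.113), as did DESeq2 (-1.65, adjusted p = 0.0585) and the replicate block. Without the libraries that stood apart it was -1.84 and still called (adjusted p = 0.0484).

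The TNF effect on Cd274 in E0771 less that in MC38 was -1.60 ± 0.52, which edgeR did not call (adjusted p = 0.182), and it was -0.79 (adjusted p = 0.747) without the libraries that stood apart. The difference between lines was -0.34 ± 0.69 (adjusted p = 0.898) for RG6146 and 0.50 ± 0.56 (adjusted p = 0.65) for the combination against TNF. Thus no difference between the lines in the response of Cd274 was shown.

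**Figure D2:**
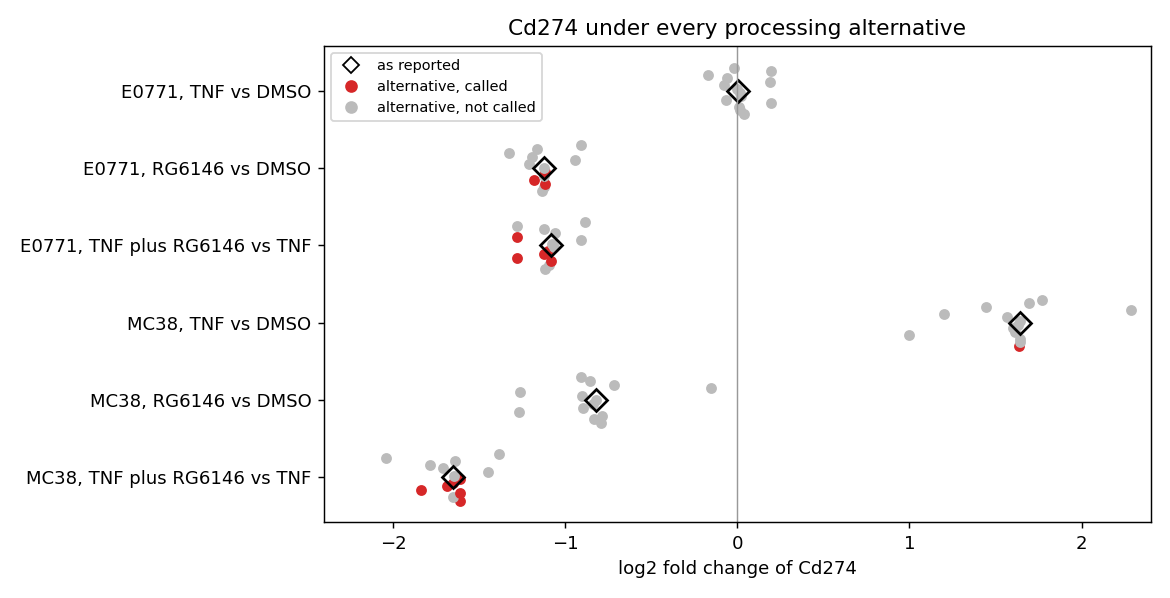
Log2 fold change of Cd274 in 6 comparisons, as reported (diamonds) and under every alternative setting run, left-out libraries included, with red points where the gene was called and grey points where it was not. The 3 comparisons in which it was called stay below 0 under every alternative, at -1.33 to -0.91 and -1.28 to -0.88 in E0771 and -2.04 to -1.38 in MC38, and most of their points are grey.

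Cd276 followed a lower course with RG6146 but passed no treatment test. In E0771 it stood at 10.7, 10.3 and 11 CPM with DMSO, 8.82, 9.53 and 9.40 with RG6146, 12.7, 10.6 and 9.10 with TNF, and 8.63, 9.0 and 8.56 with the combination. The RG6146 libraries lay below the DMSO libraries and the combination below both DMSO and TNF, at log2 values of -0.20 ± 0.16, -0.29 ± 0.16 and -0.31 ± 0.16 (edgeR adjusted p of 0.485, 0.261 and 0.209). In MC38 it stood at 2.70, 1.68 and 1.66 CPM with DMSO, 1.16, 0.725 and 1.17 with RG6146, 1.45, 1.59 and 1.97 with TNF, and 0.948, 1.32 and 0.767 with the combination. The 6 MC38 libraries with RG6146, at up to 1.32 CPM, lay below the 6 without, at 1.45 CPM or more. The log2 value was -0.95 ± 0.36 for RG6146 against DMSO (unadjusted p = 0.0203, edgeR adjusted p = 0.135) on 6 to 17 counts a library.

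Nectin2 rose with TNF in E0771. It stood at 29.2, 27.4 and 26.9 CPM with DMSO and at 34.1, 48.1 and 41.5 CPM with TNF, all 3 TNF libraries above all DMSO libraries, a 1.48-fold rise (0.57 ± 0.13, edgeR adjusted p = 0.0323). It was the 1 of 6 ligand genes called for TNF in this line, beside 2.32% of 12541 genes. With the combination it stood at 33.6, 29.1 and 30.6 CPM, below every TNF library, and was 1.33-fold lower than with TNF (-0.41 ± 0.13, edgeR adjusted p = 0.0458). Cd274 and Nectin2 were the 2 of 6 called for the combination against TNF in E0771, where 16.6% of genes were called.

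The Nectin2 call for TNF ended without any 1 DMSO library or without TNF replicate 2, which stood apart (adjusted p from 0.0667 to 0.144, and 0.44 on the log2 scale without TNF replicate 2). For the combination against TNF it ended without TNF replicate 2 or 3 or any combination replicate (-0.54 to -0.28 over all left-out libraries, adjusted p from 0.0618 to 0.168 where lost). Both Nectin2 calls also ended with the replicate block, with only the 6 libraries compared and without the libraries that stood apart. The call for TNF was lost with library totals too, and the other without a filter and with DESeq2. With RG6146 alone Nectin2 stood at 23.9, 26.9 and 24.4 CPM, which touched the DMSO range at 26.9 CPM (-0.15 ± 0.14, edgeR adjusted p = 0.554).

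In MC38 the Nectin2 values lay the other way. They were 13.7, 16.3 and 15.6 CPM with DMSO, 11.7, 13.0 and 13.5 with RG6146, 9.67, 13.1 and 13.4 with TNF, and 12.3, 13.3 and 11.7 with the combination. Every treated library was below every DMSO library, and no comparison was called (-0.34 ± 0.17 for TNF, -0.25 ± 0.17 for RG6146 and -0.29 ± 0.17 for the combination against DMSO, edgeR adjusted p of 0.439, 0.416 and 0.336). The TNF effect in E0771 less that in MC38 was 0.95 ± 0.22 (edgeR adjusted p = 0.0582), just above the threshold and so not called. DESeq2 called it (0.97, adjusted p = 0.0138), and so did edgeR without E0771 TNF replicate 1 (1.09, adjusted p = 0.00847), without MC38 TNF replicate 3 (1.03, adjusted p = 0.0481) and without a filter (0.95, adjusted p = 0.0465). Without the libraries that stood apart it was 0.60 (adjusted p = 0.481).

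Pvr was higher with the combination than with DMSO in MC38. It stood at 13.3, 14.1 and 15.6 CPM with DMSO, 20, 17.6 and 19.4 with RG6146, 17.6, 22.4 and 18.5 with TNF, and 23.4, 20.5 and 22.4 with the combination. All 9 treated libraries lay above all 3 DMSO libraries. The rise with the combination was 1.54-fold (0.63 ± 0.15, edgeR adjusted p = 0.0211), while RG6146 stood at 0.41 ± 0.15 (adjusted p = 0.132) and TNF at 0.45 ± 0.15 (adjusted p = 0.247). The combination's call ended without MC38 DMSO replicate 1 or 2 or combination replicate 1 or 3 (0.58 to 0.70 over all left-out libraries, adjusted p from 0.0532 to 0.0785 where lost) and in fits without a filter or of only the 6 libraries compared.

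Pvr in E0771 stood at 39.0, 33.7 and 34.1 CPM with DMSO, 36.9, 33.1 and 42.9 with RG6146, 46.6, 38.2 and 60.6 with TNF, and 48.0, 46.3 and 51.3 with the combination. The combination libraries lay above all DMSO and RG6146 libraries, at 0.45 ± 0.16 against DMSO (edgeR adjusted p = 0.0659) and 0.37 ± 0.16 against RG6146 (adjusted p = 0.731), and neither was called. Against DMSO it was called without a filter (0.45, adjusted p = 0.033), with the replicate block (0.44, adjusted p = 0.0441) and with only the 6 libraries compared (0.45, adjusted p = 0.00205), and against RG6146 with only those 6 (0.37, adjusted p = 0.0147). TNF overlapped DMSO at 0.44 ± 0.15 (edgeR adjusted p = 0.217). Without TNF replicate 2 this was 0.59 and called (adjusted p = 0.0201). The TNF values of Pvr in the 2 lines differed by 0.03 ± 0.22 (adjusted p = 0.986).

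Cd47 rose with TNF in MC38. It stood at 35.7, 20.8 and 45.3 CPM with DMSO, 48.3, 50.9 and 45.4 with RG6146, 72.0, 68.1 and 72.7 with TNF, and 59.6, 69.4 and 43.5 with the combination. The TNF libraries lay above all DMSO and RG6146 libraries, and the rise over DMSO was 2.10-fold (1.07 ± 0.23, edgeR adjusted p = 0.0377). Cd47 was the 1 of 6 called for TNF in MC38, beside 1.09% of 13272 genes. With the combination it was 1.71-fold above DMSO (0.77 ± 0.23, edgeR adjusted p = 0.0494), although the 2 groups overlapped. Cd47 and Pvr were the 2 of 6 called for the combination against DMSO in MC38, where 9.4% of genes were called.

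For TNF the Cd47 call ended without MC38 DMSO replicate 1 or 2 or any TNF replicate (0.81 to 1.33 over all left-out libraries, adjusted p from 0.0671 to 0.11 where lost), and without the libraries that stood apart (0.80, adjusted p = 0.0639). For the combination it ended without DMSO replicate 1 or 2 or combination replicate 1 or 2 (0.51 to 1.06, adjusted p from 0.0914 to 0.184 where lost). Both Cd47 calls also ended with the replicate block and with only the 6 libraries compared, and the combination's call with library totals. MC38 DMSO replicate 2, the lowest library at 20.8 CPM, also stood apart in its mitochondrial ribosomal RNA. Without the MC38 libraries that stood apart the combination value was 0.35 (edgeR adjusted p = 0.252). The part of the quality of DMSO replicate 2 in the rise was not tested. RG6146 alone stood at 0.52 ± 0.23 (edgeR adjusted p = 0.203) in MC38, and at 0.80 and called without DMSO replicate 3 (adjusted p = 0.0396).

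In E0771 Cd47 stood at 104, 108 and 95.1 CPM with DMSO, 99.1, 92.3 and 105 with RG6146, 150, 64.8 and 144 with TNF, and 113, 106 and 113 with the combination. TNF replicate 2 was the lowest of the 12 libraries and the other 2 TNF libraries were the highest. With all libraries the TNF value was 0.22 ± 0.22 (edgeR adjusted p = 0.718). Without TNF replicate 2 it was 0.53 and called (adjusted p = 0.00159), and the combination was then lower than TNF by 0.42 on the log2 scale (-0.42, adjusted p = 0.00293) against -0.11 ± 0.22 (adjusted p = 0.786) with it.

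Lgals9 passed no treatment test. In E0771 it stood at 45.4, 35.7 and 36.7 CPM with DMSO, 41.3, 37.7 and 37.8 with RG6146, 30.6, 46.9 and 32.9 with TNF, and 35.3, 33.7 and 35.2 with the combination. The log2 values against DMSO were -0.09 ± 0.15 for TNF, -0.01 ± 0.15 for RG6146 and -0.18 ± 0.15 for the combination (edgeR adjusted p of 0.86, 0.975 and 0.491). In MC38 it stood at 3.24, 3.85 and 3.32 CPM with DMSO, 5.16, 3.38 and 3.38 with RG6146, 2.42, 4.28 and 3.34 with TNF, and 2.84, 7.90 and 1.92 with the combination. The 7.90 CPM belong to combination replicate 2, the library with 1960 CPM of leukocyte markers, whose part in the value was not tested. With that library the combination stood at 0.31 ± 0.42 against DMSO, and without it at -0.53 (edgeR adjusted p of 0.722 and 0.466).

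**Figure D3:**
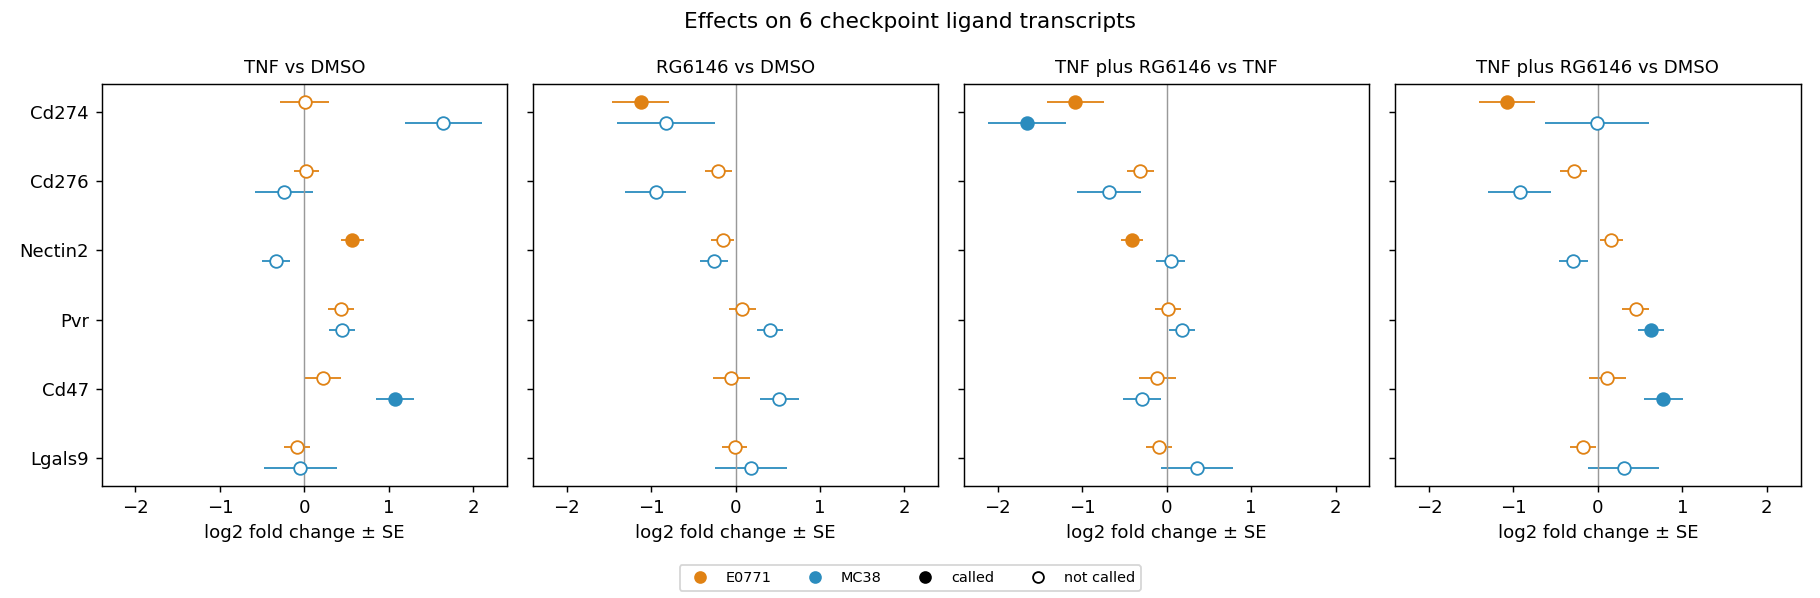
Log2 fold changes with 1 SE to each side for the 6 tested ligand genes in 4 comparisons, in E0771 (orange) and MC38 (blue), filled where edgeR's adjusted p was under 0.05. Cd274 lies below 0 for the combination against TNF in both lines (-1.08 and -1.65), whereas Nectin2 with TNF is at 0.57 in E0771 and -0.34 in MC38.

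Over the 6 genes, the median log2 change was 0.12 with TNF, -0.10 with RG6146 and -0.21 for the combination against TNF in E0771, and 0.20, -0.04 and -0.13 in MC38. Over all tested genes these medians were -0.02, 0.00 and 0.00 in E0771 and 0.02, -0.01 and -0.03 in MC38. Besides the counts above, 1 of 6 was called for the combination against DMSO in E0771 (Cd274), beside 16.1% of all genes. For RG6146 against DMSO in MC38, edgeR called 0 of 6, beside 8.27% of all genes, and DESeq2 0 of 6, beside 1357 of 13272. In that comparison Cd276, Cd47 and Pvr had an edgeR unadjusted p under 0.05, beside 2949 of all 13272 genes. For the combination against RG6146, edgeR and DESeq2 each called 0 of 6 in both lines. Of all genes edgeR called 0.734% in E0771 and 0.294% in MC38, and DESeq2 called 113 genes and 67 genes. The edgeR unadjusted p was under 0.05 for 2 of 6 in E0771 (Nectin2 and Pvr), beside 768 of all 12541 genes. In MC38 this held for 0 of 6, beside 672 of all 13272 genes. The comparisons with DMSO share its libraries, and so do those with TNF.

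For the interaction of TNF and RG6146, edgeR and DESeq2 called 0 of 6 in each line. An unadjusted p under 0.05 was found for 0 of 6 in E0771 and for 1 of 6 in MC38. That gene was Cd47, at -0.81 ± 0.32 (edgeR unadjusted p = 0.0239, adjusted p = 0.818). Of all genes edgeR called 0.0478% in E0771, where DESeq2 called 13 genes, and 0 in MC38, where DESeq2 called 3. The edgeR unadjusted p was under 0.05 for 427 of 12541 genes in E0771 and 772 of 13272 in MC38. For the differences between lines edgeR called 0 of 6 for TNF, RG6146 and the combination against TNF, beside 0.206%, 0.384% and 2.28% of 14058 genes. The edgeR unadjusted p was under 0.05 for 3, 0 and 1 of the 6, beside 1947, 1562 and 2838 of all 14058 genes. DESeq2 called 1, 0 and 0 of the 6, beside 162, 124 and 546 of all 14058 genes.

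Some genes upstream of PD-L1 in the interferon route rose with TNF. Of its 16 tested genes 4 rose with TNF in E0771, where 1.88% of all genes rose, and 3 in MC38, where 1.02% of all genes rose, and 0 fell. The median log2 change of the list was 0.31 and 0.44, against -0.02 and 0.02 over all genes. Irf1, a transcription factor that binds the Cd274 promoter in interferon-treated cells, rose from 120 ± 3.80 to 802 ± 98.4 CPM in E0771 (2.75 ± 0.10, edgeR adjusted p = 7.46e-10) and from 221 ± 51.4 to 895 ± 152 CPM in MC38 (2.02 ± 0.21, adjusted p = 0.00012). The interferon-gamma receptor gene Ifngr2 rose by 1.14 ± 0.19 and 1.53 ± 0.21, and its partner Ifngr1 by 0.65 ± 0.13 and 0.91 ± 0.14. Jak2, a kinase of the interferon-gamma receptor, was not called for TNF in either line (0.21 ± 0.14 and 0.53 ± 0.18, edgeR adjusted p of 0.558 and 0.22). For TNF, Cd274 stood at 0.00 ± 0.29 in E0771 and 1.64 ± 0.46, not called, in MC38. A link between Cd274 and Irf1 was not tested.

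With RG6146 alone 3 of the 16 genes fell in E0771, where 6.86% of all genes fell. In MC38 1 fell and 1 rose, beside 4.91% and 3.37% of all genes, a share near that of all genes. Irf9, a transcription factor of the interferon response, fell in both (-0.91 ± 0.11 and -0.67 ± 0.17, edgeR adjusted p of 0.000121 and 0.0262). For the combination against TNF, 4 fell and 1 rose in E0771, beside 9.46% and 7.12% of all genes, and 2 fell in MC38, beside 7.6%. Irf1 fell by 0.69 on the log2 scale in E0771 (-0.69 ± 0.10, adjusted p = 0.000185) and stood at -0.50 ± 0.20 (adjusted p = 0.134) in MC38, where Ifngr2 fell (-1.06 ± 0.21, adjusted p = 0.00516).

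Of 15 genes of the NF-kB route 7 rose with TNF in E0771 and 5 in MC38, beside the same 1.88% and 1.02% of all genes, and 0 fell. Their median log2 change was 0.90 and 0.83. Nfkbia, the gene of the NF-kB inhibitor IκBα, stood at 4040 ± 276 CPM with TNF and 8280 ± 335 CPM with the combination in E0771, a rise of 1.04 ± 0.08 (edgeR adjusted p = 1.72e-06), and at 2910 ± 145 and 3030 ± 320 CPM in MC38 (0.06 ± 0.12, adjusted p = 0.776). Across the combination against TNF, 2 of the 15 rose and 4 fell in E0771 (7.12% and 9.46% of all genes), and 2 fell in MC38 (7.6% of all genes). In E0771 Nfkbib went from 56.3 ± 3 CPM with TNF to 37.3 ± 3.14 CPM with the combination. Nfkbie in MC38 went from 39.6 ± 3.06 to 25.9 ± 2.53 CPM. The part of this route in the lower Cd274 with the combination was not tested.

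Among BET proteins and other known regulators of Cd274, Brd2 rose with RG6146 in both lines (1.67 ± 0.20 in E0771 and 1.57 ± 0.19 in MC38, edgeR adjusted p of 0.000136 and 0.000299), whereas Myc was not called. Fosl1, a component of AP-1, fell with RG6146 in both (-0.76 ± 0.10 and -0.82 ± 0.14). In all, 2 of 15 tested genes rose and 3 fell with RG6146 in E0771 (3.96% and 6.86% of all genes), and 3 of 16 rose and 1 fell in MC38 (3.37% and 4.91% of all genes), so that the 1 that fell is near the share of all genes. Of genes that act on the stability or maturation of the PD-L1 and CD47 proteins, 4 of 17 rose with RG6146 in E0771 and 1 of 16 in MC38, and 0 fell. Of all genes 3.96% and 3.37% rose, so the MC38 share is near that of all genes. Cmtm6, whose product keeps PD-L1 from degradation, went from 37.0 ± 8.23 to 77.3 ± 3.66 CPM in E0771 (1.06 ± 0.24, edgeR adjusted p = 0.00995), where the Cd274 transcript fell, and stood at 0.46 ± 0.35 (adjusted p = 0.497) in MC38. No protein was measured.

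Other ligands and co-signalling surface genes were mostly low or not called. Of 25, 11 passed the filter in each line, and with TNF 1 rose in each, beside 1.88% and 1.02% of all genes. Icosl, the ligand of the T cell receptor ICOS, rose in E0771 from 3.04 ± 1.11 to 18.7 ± 6.48 CPM (2.64 ± 0.31, edgeR adjusted p = 0.000113) and was lower with the combination than with TNF (-1.16 ± 0.27, adjusted p = 0.00943). Cd200, whose receptor restrains myeloid cells, rose with TNF in MC38 from 9.04 ± 2.95 to 20.8 ± 5.03 CPM (1.22 ± 0.25, adjusted p = 0.0303) and was lower with the combination than with TNF (-1.97 ± 0.26, adjusted p = 0.000493). With RG6146 alone 1 of the 11 rose and 1 fell in E0771 (3.96% and 6.86% of all genes), and 2 fell in MC38 (4.91% of all genes). Those in E0771 were Calr, the gene of the chaperone calreticulin (0.44 ± 0.10, edgeR adjusted p = 0.00796), and Vsir, the gene of the checkpoint protein VISTA (-0.80 ± 0.23, adjusted p = 0.0381). Those in MC38 were Cd200 (-0.998 ± 0.27, adjusted p = 0.0376) and Thbs1, whose product thrombospondin-1 binds CD47 (-1.99 ± 0.55, adjusted p = 0.0391). Of 9 receptors of the ligands found in the table, 1 passed the filter in E0771 and 3 in MC38, and 0 were called with TNF or with RG6146. Rgmb, which encodes a binding partner of PD-L2, was higher with the combination than with TNF in E0771 (1.48 ± 0.46, edgeR adjusted p = 0.0404), where 7.12% of all genes rose. It stood at 7.86 ± 1.15 CPM with DMSO, 3.65 ± 3.76 with TNF and 10.4 ± 1.84 with the combination. The SD with TNF was thus above the mean. In MC38 the means lay the other way, at 11.6 ± 9.71 CPM with TNF and 4.05 ± 1.81 with the combination, and Rgmb was not called.

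Of the 6 protein-coding genes between Nectin2 and Pvr, Bcl3, an NF-kB cofactor gene, was tested in both lines and Ceacam16 in E0771 alone. The others did not pass the filter in either line. Bcl3 rose with TNF in both lines (2.24 ± 0.29 and 2.13 ± 0.27, edgeR adjusted p of 0.000374 and 0.000534) and was lower with the combination than with TNF (-1.60 ± 0.28 and -2.32 ± 0.27). In E0771 Ceacam16 was not called for TNF (0.081 ± 0.335, edgeR adjusted p = 0.945) or for the combination against TNF (0.037 ± 0.343, adjusted p = 0.961). For TNF, Nectin2 stood at 0.57 (called) and Pvr at 0.44 (not called) in E0771, and at -0.34 and 0.45 (neither called) in MC38, and no test compared them with Bcl3. Plgrkt, which is transcribed away from Cd274 at a shared start region, was not called for TNF, RG6146 or the combination against TNF in either line.

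The genes whose log2 CPM followed Cd274 most closely over the 12 libraries of a line were Tshz1, Mcf2l and Ncoa6 in E0771 (Pearson r of 0.931, 0.929 and 0.925) and Casp4, Snx16 and Gbp4 in MC38 (0.942, 0.92 and 0.914). They were taken from 9091 and 9141 genes with a mean of at least 5 CPM, whose median r was -0.007 and 0.074. These are descriptions over 12 libraries that share treatments and depth.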

How the data were processed

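The authors deposited raw counts per gene, whole numbers for 43629 Ensembl identifiers in 24 libraries. All 24 columns were used. QuantSeq 3′ libraries from 500 ng of RNA were sequenced as 75 bp single ends, per the labels' protocols. Per the submitters' processing notes, bcl2fastq 2.17.1.14, cutadapt 1.14, HISAT2 2.1.0 and featureCounts of Subread 1.5.2 were used with mm10. Not given in the sources used here were the annotation release, the strand setting and how multiply mapped reads were treated.

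Symbols were found for 42462 identifiers, and positions came from GENCODE vM21 (GRCm38). Each line was fitted apart with edgeR 4.0.16 in R 4.3.3 (filterByExpr, TMM, estimateDisp, glmQLFit, glmQLFTest) on 12 libraries in 4 groups without covariates, which tested 12541 genes in E0771 and 13272 in MC38. Comparisons between lines used 1 fit of 24 libraries and 14058 genes. Log2 fold changes have a prior count of 0.125, and SE is the absolute log2 fold change over the root of F. Alternatives were DESeq2 1.42.0, other scalings, no filter, other sets of libraries and a replicate block. The code was tested on simulated counts. The 8 genes, the gene lists and the motifs were chosen with earlier results of these data known. Named genes were the 8, the 3 most like Cd274 in each line (Pearson r of log2 CPM, prior count 2), up to 2 called genes per list, direction and comparison with the smallest p, and Irf1, Jak2, Ifngr1, Cmtm6, Nfkbia and Myc. Some items covered by these rules are not reported here. Bcl3, Ceacam16 and Plgrkt were added for their positions. Of the 10 receptors listed, Pvrig was not analysed here.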

Additional observations from a re-analysis of the deposited data

How the results depend on the processing

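Of 15 calls of single genes, 119 of 196 values under alternatives were called and all 196 kept their sign. The 6 calls between the lines in DMSO accounted for 72 of the 119. Leaving out the libraries that stand apart was chosen after seeing the data, and other alternatives with the earlier results known. The cause of a moved value was not tested, beyond the fewer samples or genes that an alternative itself brings. Among 1441 values, 92 changed sign in 31 results, 63 of them with 1 library left out. In 0 of the 92 was either value called, and 90 lay within 1 SE of 0 as reported. The depth limits Cd274 and Cd276 in MC38 most, and Pdcd1lg2 and Cd80 in both lines.

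Counts of the 6 genes called changed as follows. With library totals in place of TMM, 0 were called for TNF in E0771 and 1 for the combination against DMSO in MC38. Of all genes 264 of 12541 and 1416 of 13272 were then called. Without a filter, 0 were called for RG6146 and 1 for the combination against TNF in E0771, 1 for the combination against DMSO in MC38 and 2 for the line difference in TNF. Of all genes 1653 and 2464 of 23541, 1803 of 25041 and 514 of 27027 were then called. For the combination against DMSO in E0771 the count stayed 1 without a filter and with the replicate block, but the gene called was Pvr and no longer Cd274. There 2299 of 23541 genes were called without a filter and 1845 of 12541 with the block. With DESeq2, 0 were called in E0771 for RG6146, the combination against TNF and the combination against DMSO, beside 1288, 1993 and 1897 of 12541 genes. It called 0 in MC38 for the combination against TNF, beside 1720 of 13272 genes, and 1 for the line difference in TNF, beside 162 of 14058. With only the 6 libraries compared, 0, 0, 1 and 2 were called in E0771 for TNF, the combination against TNF, against RG6146 and against DMSO. Of all genes 110 of 12428, 881 of 12062, 534 of 12043 and 3852 of 12175 were then called. In MC38 0 and 0 were called for TNF and the combination against DMSO, beside 69 of 12670 and 735 of 12744 genes. In the fit of 24 libraries, 0, 1 and 0 were called in E0771 for RG6146 and the combination against TNF and DMSO, and 2 in MC38 for TNF. Of all 14058 genes 1068, 1663, 1584 and 331 were then called. Without the libraries that stand apart, 2 were called for TNF in E0771, 0 for TNF and 1 for the combination against DMSO in MC38. Of all genes 413 of 12755 in E0771, and 100 and 1092 of 13357 in MC38, were then called. With 1 library left out, the counts ran in E0771 from 0 to 2 for TNF and for the combination against TNF, and were 0 throughout for RG6146 and for the combination against DMSO. Calls among all genes then ran from 164 to 622 for TNF and from 1266 to 2898 for the combination against TNF. For RG6146 they ran from 728 to 933, and for the combination against DMSO from 1291 to 1478. In MC38 the counts of the 6 ran from 0 to 1 for TNF and for RG6146 and from 0 to 2 for the combination against DMSO. They were 0 throughout for the combination against TNF. Calls among all genes there ran from 95 to 160 for TNF and 479 to 1243 for RG6146. For the combination they ran from 739 to 1097 against DMSO and 751 to 1195 against TNF. For the line difference in TNF the counts of the 6 ran from 0 to 1, beside 7 to 327 of all genes.

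What a replicate number shares is not given in the labels. The deviations of same-numbered libraries correlated at -0.177 to 0.137 in E0771 and -0.34 to 0.237 in MC38, over 0.1 in 3 and 5 of 18 pairs. For differently numbered libraries this was -0.339 to 0.334 and -0.388 to 0.401, over 0.1 in 4 and 15 of 36 pairs. In E0771 1 of 12 libraries correlated best with its own number, and in MC38 3 of 12. Pairing by number did not show in these values, which cannot exclude it. With the replicate block, 0 genes were called in E0771 for TNF, RG6146 and the combination against TNF, and in MC38 0 for TNF, 0 for the combination against TNF and 1 for the combination against DMSO. With the block, 3 values changed sign: Cd274 for TNF in E0771 (0.000), and Lgals9 at -0.009 for the combination against RG6146 in MC38 and -0.009 for the line difference in TNF.

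Signs also changed as follows, in log2 units. With library totals, Cd274 and Cd276 for TNF in E0771 were -0.066 and -0.047, Pvr for the combination against TNF -0.035, Cd274 against RG6146 -0.012, Cd47 against DMSO -0.004, and the line difference in TNF -0.043 for Pvr and -0.077 for Lgals9. Pvr for the combination against TNF in E0771 was -0.006 without a filter and -0.026 in the fit of 24 libraries. Cd274 for the combination against DMSO in MC38 was 0.03 with DESeq2's size factors and 0.024 in the fit of 24 libraries. Without the libraries that stand apart, the values in E0771 were, for the combination against TNF, -0.14 (Pvr) and 0.13 (Lgals9), and for the interaction -0.15 (Cd274) and 0.14 (Lgals9). In MC38 Lgals9 was then 0.23 for TNF, -0.65, -0.70 and -0.43 for the combination against TNF, RG6146 and DMSO, and -0.93 for the interaction, while Nectin2 was -0.14 against TNF and Cd276 -0.22 against RG6146. The line differences were then -0.52 for TNF (Lgals9), 0.11 for RG6146 (Cd274), and -0.022 (Cd47) and 0.73 (Lgals9) for the combination against TNF.

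With 1 library left out, these ranges crossed 0. Cd274 in E0771 ran from -0.17 to 0.20 for TNF, -0.17 to 0.25 for the combination against RG6146 and -0.18 to 0.24 for the interaction, in MC38 from -0.45 to 0.66 for the combination against DMSO, and its line difference in RG6146 from -0.998 to 0.10. Cd276 ran from -0.10 to 0.13 for TNF and -0.21 to 0.013 for the interaction in E0771, and -0.22 to 0.16 for the combination against RG6146 in MC38. Cd47 ran from -0.42 to 0.089 for the combination against TNF and -0.37 to 0.14 for the interaction in E0771, and its line difference for the combination against TNF from -0.17 to 0.30. Nectin2 in MC38 ran from -0.094 to 0.007 for the combination against RG6146 and -0.084 to 0.12 against TNF. Pvr in E0771 ran from -0.024 to 0.16 for RG6146, -0.14 to 0.20 for the combination against TNF and -0.22 to 0.12 for the interaction, and its line difference in TNF from -0.17 to 0.20. Lgals9 in E0771 ran from -0.31 to 0.041 for TNF, -0.081 to 0.10 for RG6146, -0.22 to 0.13 for the combination against TNF and -0.21 to 0.14 for the interaction. Lgals9 in MC38 ran from -0.28 to 0.13 for TNF, -0.045 to 0.29 for RG6146, -0.48 to 0.67, -0.71 to 0.44 and -0.53 to 0.62 for the combination against TNF, RG6146 and DMSO, and -0.66 to 0.49 for the interaction. Its line differences ran from -0.24 to 0.28 for TNF, -0.34 to 0.000 for RG6146 and -0.83 to 0.31 for the combination against TNF.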
